A study of Mus musculus with 2 samples.

Results

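The 38 autophagy and mitophagy genes described here cover the machinery that builds an autophagosome, the ATG8-family proteins that coat it, the receptors that load cargo and mitochondria into it, and 3 transcription factors of the pathway. They were chosen by gene symbol, and all 38 were found among 55536 mouse genes, 22028 of them protein-coding, in the gene table of GENCODE release M21. They were measured by paired-end sequencing of polyadenylated RNA from G1E-ER4, a mouse erythroid cell line derived from cells without Gata1 in which the function is restored by a GATA1 protein fused to an estrogen-receptor domain. Both libraries came from cells exposed to 17beta-estradiol (10 nM, 24 h), which activates the fusion protein and starts erythroid differentiation. The labels give a male, postnatal origin. They number the libraries as biological replicates 1 and 2 of 1 group (n = 2), but both cite the same biosample record and nothing says that they came from separate cultures. Differences between them may therefore be technical, and no untreated cells were analysed here, so no effect of estradiol was tested.

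Autophagy delivers cytoplasm and organelles to the lysosome. The ULK1 kinase complex and a class III PI3-kinase complex start a cup-shaped membrane, ATG9, WIPI and ATG2 proteins supply its lipid, and a pair of ubiquitin-like conjugation systems attaches the ATG8 proteins (LC3 and GABARAP) that bind cargo receptors. Maturing red cells clear their mitochondria by this route, and BNIP3L (also called NIX), an outer mitochondrial membrane receptor, is known for its part in that clearance.

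The libraries differed in depth 5.06-fold, with 71485617 expected counts (estimated fragments assigned to genes) in replicate 1 and 14121747 in replicate 2, and counting error is larger in replicate 2. All 8 erythroid markers were at or above 1 TPM (the authors' length-normalised relative abundance of transcripts) in both libraries. Of the 8, 4 were over 2-fold lower and 1 over 2-fold higher in replicate 2, beside 35.4% and 15.5% of all genes compared. The lower ones were Hbb-bs (97719 and 34786 TPM), Hba-a1 (67200 and 30385), Alas2 (304 and 69.0) and Tfrc (30.3 and 8.38). In protein-coding transcripts alone, Hba-a1 went the other way (2598 and 29117 TPM) and Alas2 differed little (78.6 and 67.5). Hbb-bs (97708 and 34742) and Tfrc (21.4 and 5.03) stayed lower there. Klf1 was the higher one, at 634 and 2134 TPM. Gata1 had 2890 and 2661 TPM, but the transcript of the GATA1 fusion protein may count towards it, which was not tested. The 6 macrophage and monocyte markers summed to 0.55 and 0.83 TPM, with Csf1r, Itgam, Lyz2 and Mpeg1 at 0 in both. The 4 mast cell markers were at 0, and the 4 lymphoid markers summed to 0.23 and 0.60 TPM. Megakaryocyte markers summed to 21.5 and 35.3 TPM, most of it Gp1ba, while Pf4 and Gp6 were at 0. In such bulk RNA, fewer cells of a type and less RNA per cell cannot be told apart.

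Of the 38 members, 31 were detected, meaning 1 TPM or more in both replicates. The share among all protein-coding genes was 33.1%. The median over the 31 detected members was 44.4 TPM in replicate 1 and 39.0 TPM in replicate 2, beside 20.2 and 15.2 TPM over detected protein-coding genes. Over all 38 members it was 30.2 and 30.8 TPM. On the log2(TPM + 1) scale the median of the 38 was 4.98 ± 0.02 (SD, n = 2). Becn1, Atg9a, Atg2a, Atg4d, Ulk1, Gabarap, Sqstm1, Bnip3, Tfe3 and Foxo3 were the 10 members at 100 TPM or more in both libraries. They made up 32.3% of detected members, beside 10.8% of detected protein-coding genes at that level. In M21 protein-coding transcripts alone, Atg9a, Gabarap, Sqstm1, Bnip3 and Foxo3 stayed at 100 TPM or more in both libraries. Becn1 (1.48 and 0 TPM), Atg4d (0.54 and 0.45 TPM), Ulk1, Atg2a and Tfe3 did not. No share of all genes at that coding level is given here. In GENCODE release M4, Ulk1, Atg2a and Atg4d were below 100 TPM in at least 1 library. Atg14, Pik3c3, Atg10, Atg4a, Atg4c, Gabarapl2 and Fundc1 were the 7 members below 1 TPM in at least 1 library.

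**Figure D1:**
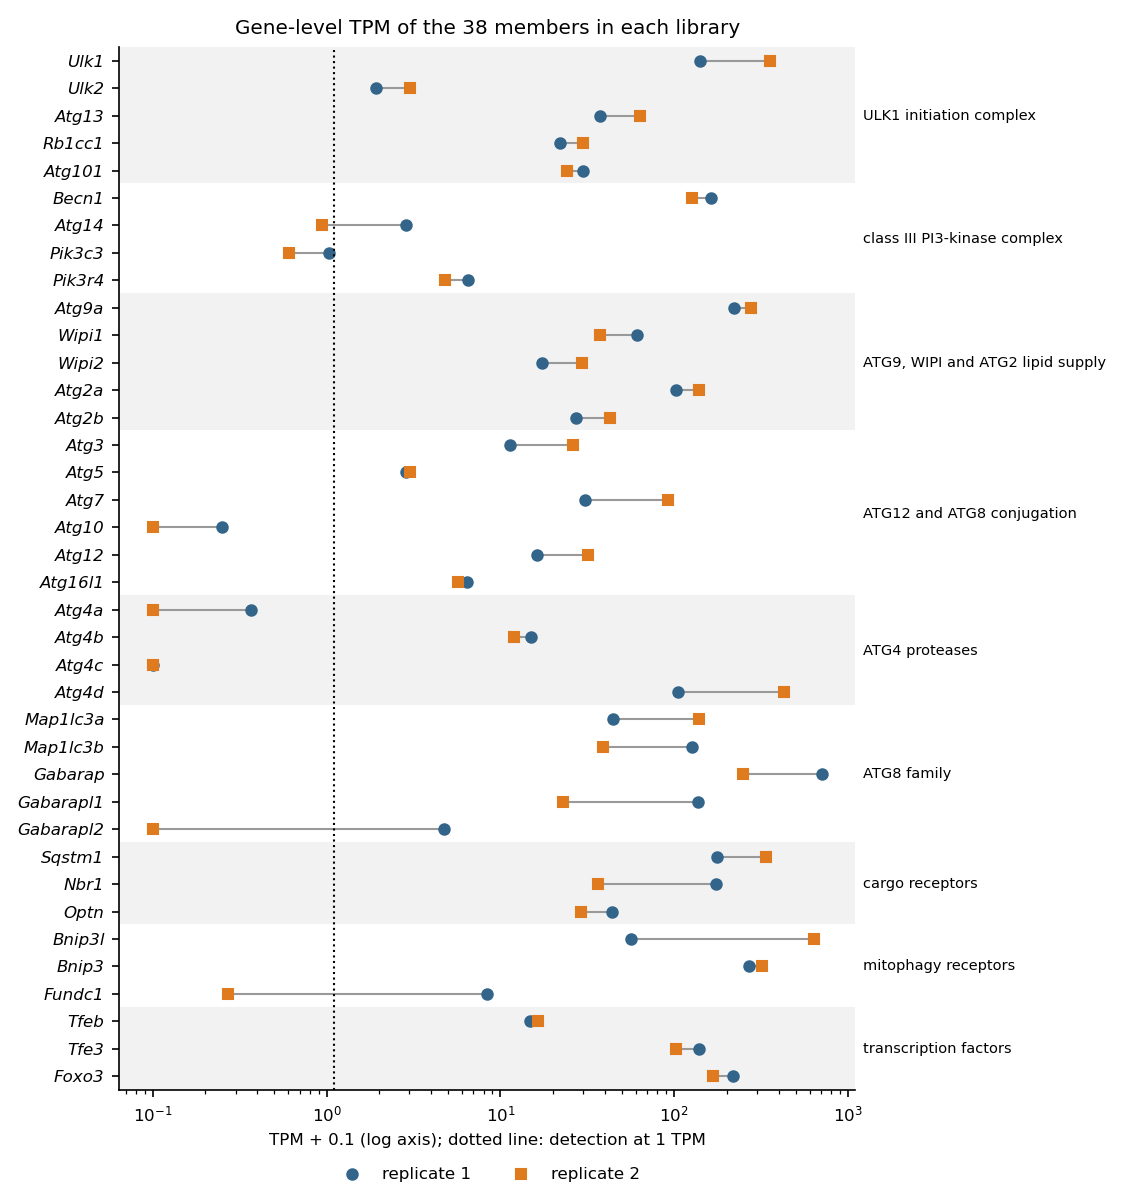
TPM of each of the 38 members in replicate 1 (circles) and replicate 2 (squares), on a log axis of TPM + 0.1, grouped by role, with the detection threshold of 1 TPM dotted. Gabarap is the highest point of replicate 1 at 708 TPM and Bnip3l that of replicate 2 at 639.8 TPM, and Atg4c is at 0 in both.

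A gene's TPM is the sum over its annotated transcripts, and for many members the transcript that led was not annotated as protein-coding. GENCODE calls such transcripts retained introns (an intron is left in), nonsense-mediated decay targets (an early stop codon follows) or processed transcripts (no open reading frame). Protein-coding transcripts held under 50% of TPM in 9 of 31 detected members in replicate 1, where the share of all detected protein-coding genes was 26.5%. In replicate 2 it was 14 of 31 members, against 31.5% of all detected protein-coding genes. The 9 members were Rb1cc1, Becn1, Pik3r4, Atg2b, Atg7, Atg12, Atg4b, Atg4d and Nbr1, and replicate 2 added Ulk1, Wipi2, Atg16l1, Optn and Bnip3l. Because short transcripts gain TPM per fragment, the same question was asked of expected counts. There, protein-coding transcripts held under 50% in 5 of 31 members in replicate 1 (16% of all detected protein-coding genes) and in 12 of 31 in replicate 2 (24.4% of all detected protein-coding genes). In replicate 1 the 5 were Rb1cc1, Becn1, Pik3r4, Atg4d and Nbr1.

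The exon structures show how close such transcripts are to coding ones. Among 19 non-coding transcripts that led a member in a library (16 genes, Atg10 included), 15 shared over 50% of their bases with exons of protein-coding transcripts of the same gene, with a median of 67.2%. The lowest was Atg12-203 at 13.9%. Becn1-213 lay wholly within coding exons, and only its joining of exons set it apart. The sequences below show, for the 3 such members with the highest mean TPM, the place where the leading non-coding transcript and the coding transcript with most counts part. Capitals mark the 32 bases on the side where they differ, lower case the 32 bases they share.
Bnip3l-205: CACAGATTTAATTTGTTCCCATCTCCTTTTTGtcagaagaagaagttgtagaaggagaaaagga
Bnip3l-201: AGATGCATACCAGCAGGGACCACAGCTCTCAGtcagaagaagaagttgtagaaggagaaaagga
Atg4d-204: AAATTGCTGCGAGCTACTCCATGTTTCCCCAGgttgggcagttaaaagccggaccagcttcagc
Atg4d-201: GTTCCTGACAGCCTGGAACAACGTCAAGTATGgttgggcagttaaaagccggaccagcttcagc
Ulk1-210: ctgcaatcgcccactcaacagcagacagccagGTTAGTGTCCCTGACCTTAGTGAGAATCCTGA
Ulk1-211: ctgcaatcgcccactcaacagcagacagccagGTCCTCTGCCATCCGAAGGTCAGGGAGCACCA

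In Bnip3l (GRCm38 chr14:66985239-67008877, minus strand) the capitals of Bnip3l-205 are its whole first exon, 32 bases found in no coding transcript, spliced to a coding exon. In Atg4d (chr9:21265293-21277772, plus strand) they are bases upstream of a coding exon that Atg4d-204 keeps and Atg4d-201 does not. In Ulk1 (chr5:110784488-110810097, minus strand) they are the first bases of an intron that Ulk1-210 reads into. Sequences are those of the GENCODE M21 transcripts.

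**Figure D2:**
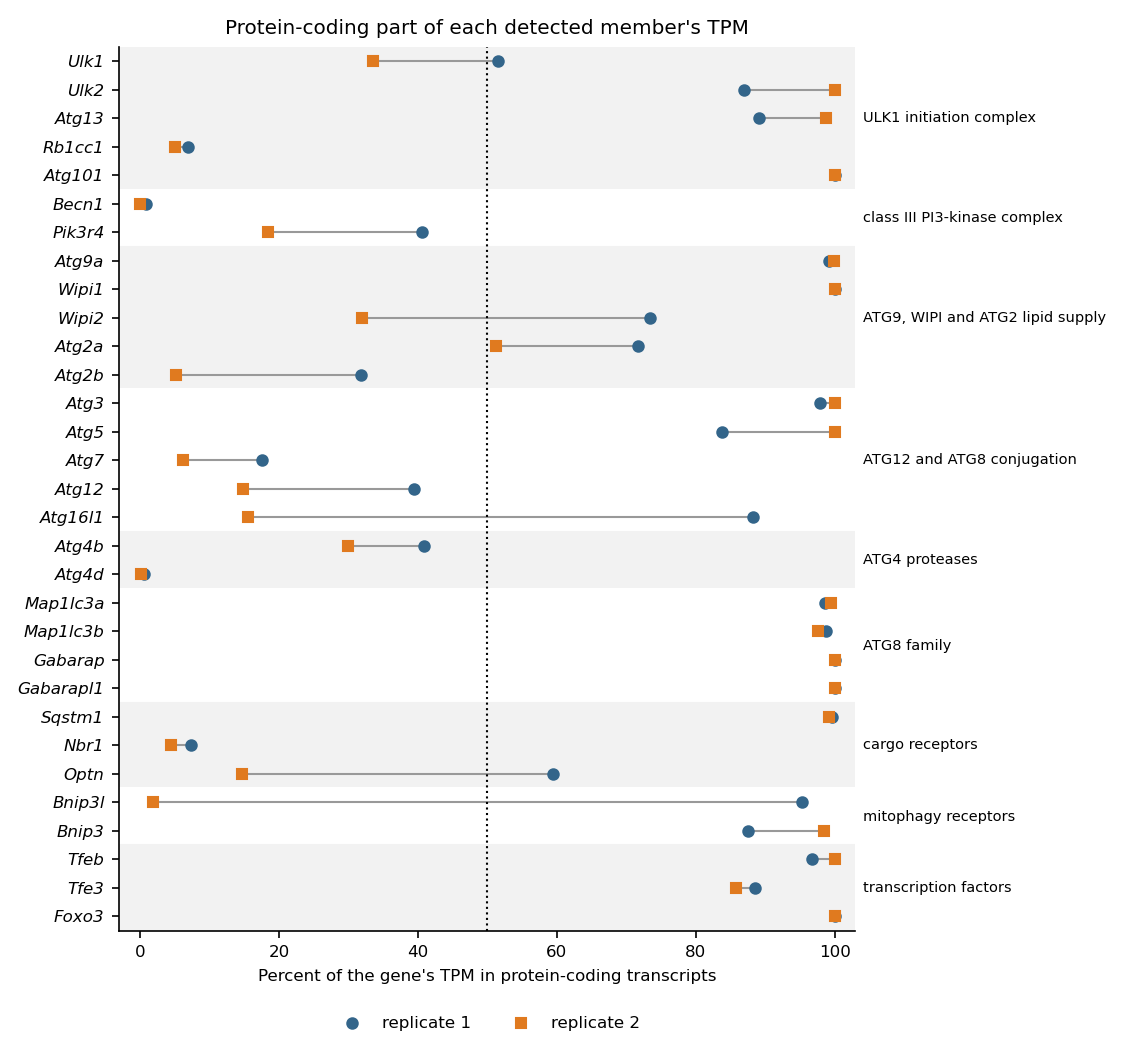
Percent of each detected member's TPM that lay in protein-coding transcripts, in replicate 1 (circles) and replicate 2 (squares), with 50% dotted. Gabarap, Gabarapl1, Sqstm1, Wipi1 and Foxo3 sit at the right in both libraries, Becn1 and Atg4d at the left in both, and Bnip3l moves from 95.2% to 1.88%.

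Among the mitophagy receptors, Bnip3l had 56.2 TPM in replicate 1 and 639.8 TPM in replicate 2, an 11.4-fold difference. In CPM (counts scaled to the library total, without length) it had 168 and 395, a 2.35-fold difference. Its effective length in the table was 2953 bases in replicate 1 and 705 bases in replicate 2. The transcripts differed as much. Bnip3l-201, the coding transcript of 3238 bases, had 53.4 TPM in replicate 1 and 11.6 TPM in replicate 2. Bnip3l-205, a processed transcript of 789 bases, had 0 and 628 TPM. Of its 789 bases, 757 are shared with coding exons and 32, those in capitals above, are its own. It held 91.7% of the gene's expected counts in replicate 2. The table made from reads, a separate quantification of the same libraries, gave protein-coding transcripts of Bnip3l 84.2% and 8.14% of the gene's TPM. Its gene-level gap was smaller than in the main table, with 61.5 and 90.0 TPM, and 83.1 and 378 after rescaling to nuclear protein-coding genes. Which transcript the shared fragments came from was not tested.

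**Figure D3:**
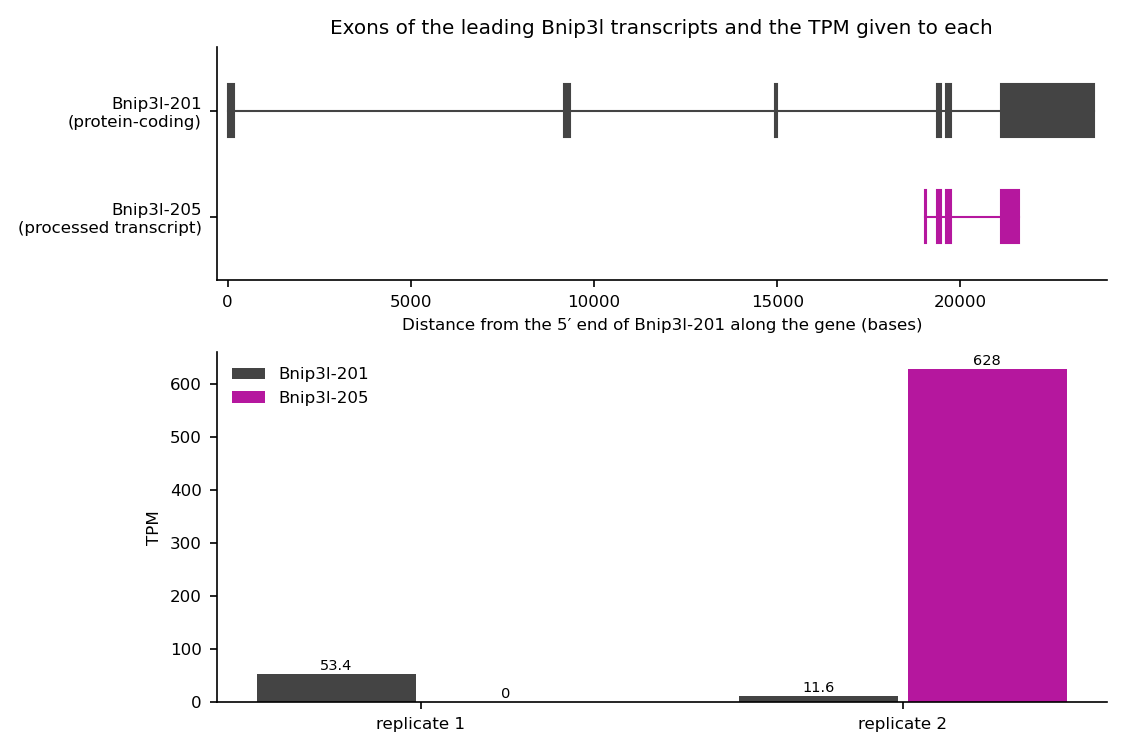
Exons of Bnip3l-201 and Bnip3l-205 as boxes along the gene, by distance in bases from the 5′ end of Bnip3l-201 (top), and bars of the TPM each transcript had in the replicates (bottom). Bnip3l-205 holds 628 TPM in replicate 2 and 0 in replicate 1, and all but its first exon lies within exons of Bnip3l-201.

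Bnip3, the related receptor known for its induction in low oxygen, had 269.5 TPM in replicate 1 and 319.8 TPM in replicate 2. In CPM it had 160 and 164, so the libraries lay close together on both measures. Its leading transcript in the main table was the coding Bnip3-203, but the table made from reads led with the retained intron Bnip3-205 and left 36.4% and 24.4% of the TPM in coding transcripts. Fundc1, a receptor in the outer mitochondrial membrane, had 8.24 TPM in replicate 1 and 0.17 TPM in replicate 2, on 271 and 4 expected counts. The table made from reads, rescaled to nuclear protein-coding genes, gave Fundc1 12.3 and 13.8, without that gap. Bnip3l made up 16.8% of the 3 receptors' TPM in replicate 1 and 66.7% in replicate 2, 41.7% ± 35.2 (SD, n = 2). Counting protein-coding transcripts alone it made up 18.0% and 3.68%, but 33.7% and 23.9% in the rescaled table made from reads. Per length, Bnip3 was above Bnip3l in replicate 1 in all 8 ways of forming a level. In replicate 2 Bnip3l was the higher where all transcripts were counted, by 2.00-fold in gene TPM but with only 90.0 against 82.0 TPM in the table made from reads, and Bnip3 where coding transcripts alone were.

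The small proteins of the ATG8 family are attached to the membrane lipid and bind the receptors, and they fall into LC3 and GABARAP subfamilies. Gabarap had 708 TPM in replicate 1 and 247 TPM in replicate 2, the highest of the 5 genes in both libraries. Gabarapl1 had 136 and 22.8 TPM. Map1lc3b, the LC3 form most used as an autophagosome marker, had 126 and 39.0 TPM. These 3 genes were lower in replicate 2 under each of the 11 ways of forming the values described further on. Map1lc3a went the other way under 10 of them, with 44.4 TPM in replicate 1 and 138 TPM in replicate 2. Gabarapl2 had 4.64 TPM in replicate 1 and 0 in replicate 2, where a count of 0 allows up to 0.212 CPM (3 counts of the total, counting error only). Its 7.09 CPM in replicate 1 was at least 33.4-fold higher than that limit. The table made from reads, rescaled to nuclear protein-coding genes, gave Gabarapl2 10.3 and 3.47, a smaller gap, so both the 0 and that fold depended on the quantification.

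Coding transcripts held at least 97.6% of TPM for every ATG8 gene with counts, so these values did not rest on the transcripts shown above. Gabarap-202 and Map1lc3b-201 led in both libraries, while Gabarapl1 changed from Gabarapl1-202 (114.7 and 2.32 TPM) to Gabarapl1-201 (17.7 and 13.0 TPM), both of them coding. In the table made from reads Gabarapl1-202 led in both. The GABARAP subfamily made up 83.3% of the family's TPM in replicate 1 and 60.4% in replicate 2, 71.8% ± 16.2 (SD, n = 2). Map1lc3b exceeded Map1lc3a 2.84-fold in replicate 1, and in replicate 2 Map1lc3a was the higher. Gabarap exceeded Map1lc3b 5.61-fold and 6.33-fold, an order that held in all 16 values (8 ways of forming a level, in each replicate).

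**Figure D4:**
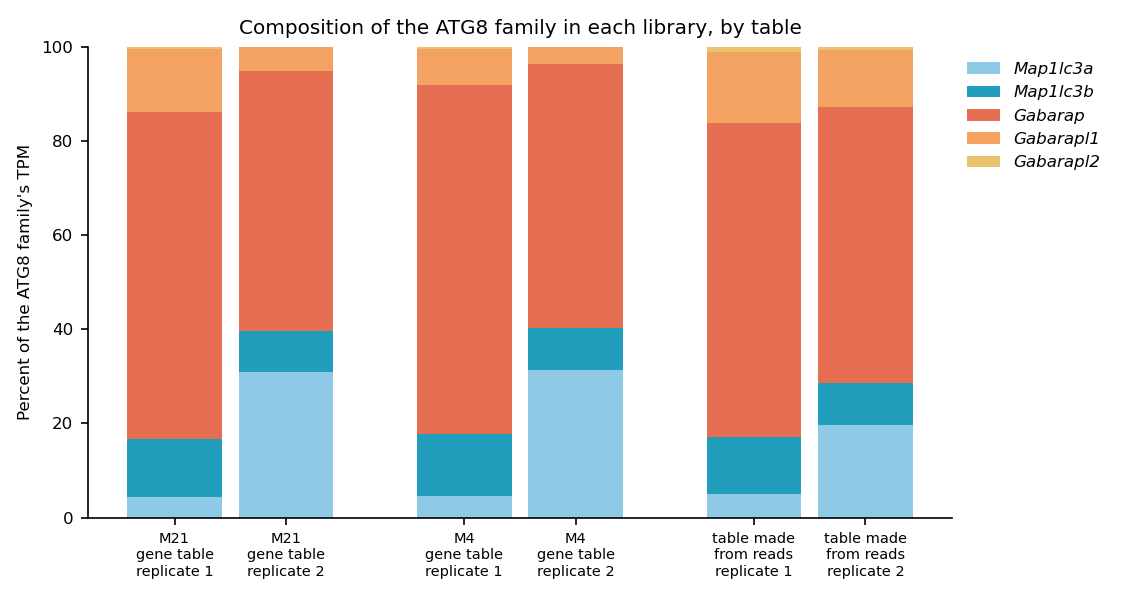
Stacked bars of the 5 ATG8 genes as percent of the family's TPM, for each replicate in the M21 gene table, the M4 gene table and the table made from reads. Gabarap is the largest part of each bar, and the part of Map1lc3a grows from 4.36% in replicate 1 to 30.9% in replicate 2 in the M21 table.

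In the initiation complex, Ulk1, the kinase that starts autophagosome formation, had 139.6 TPM in replicate 1 and 354 TPM in replicate 2. In CPM it had 294 and 448. Ulk1-210, the retained intron of 420 bases shown above, held 47.1% and 60.2% of its TPM but only 6.07% and 12.1% of its expected counts. In the table made from reads the coding Ulk1-211 led in both libraries, and 67.3% and 59.8% of TPM was coding. In the main table Ulk1-211 had 56.5 and 97.1 TPM. The M4 gene table, in whose transcript table Ulk1-210 and Ulk1-211 were not matched, gave Ulk1 59.6 and 109 TPM. Ulk1 was higher in replicate 2 in gene TPM, CPM, Ulk1-211 and the M4 table, from 1.52-fold in CPM to 2.53-fold in gene TPM. The table made from reads gave Ulk1 79.3 and 47.0 TPM, and 107 and 197 after rescaling to nuclear protein-coding genes. Its paralog Ulk2 had 1.83 and 2.93 TPM, and Ulk1 exceeded it 76.3-fold and 121-fold in gene TPM. The folds were smaller and closer together in coding transcripts alone (45.3 and 40.5), in M4 (32.9 and 33.7) and in the table made from reads (55.9 and 57.8).

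The partners of ULK1 differed less between the libraries in gene TPM, though in CPM Atg13 differed more than Ulk1, 1.61-fold against 1.52-fold. Atg13, the adaptor that joins the kinase to its partners, had 37.2 TPM in replicate 1 and 63.8 TPM in replicate 2, nearly all of it coding. Atg101, which stabilises ATG13, had 29.8 and 24.2 TPM. Rb1cc1, which encodes the scaffold FIP200, had 21.9 and 29.9 TPM, of which Rb1cc1-213, a retained intron, held 90.8% and 94.8%. The coding transcripts of Rb1cc1 had 1.51 and 1.52 TPM.

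All 4 genes of the class III PI3-kinase complex had a lower TPM in replicate 2. Their median log2 difference was -0.66, beside -0.42 over all genes compared, and Becn1 (-0.36) and Pik3r4 (-0.45) lay near the value of all genes. Coding transcripts in the rescaled table made from reads put Becn1, Pik3c3 and Pik3r4 higher in replicate 2, and all transcripts of that table Pik3c3. Becn1, the regulatory subunit Beclin 1 (chr11:101285952-101302286, minus strand), had 162 TPM in replicate 1 and 127 TPM in replicate 2, the highest of the complex. Its protein-coding transcripts had 1.48 and 0 TPM. The leading Becn1 transcript was Becn1-211 in replicate 1 (86.8 and 0 TPM) and Becn1-213 in replicate 2 (0.49 and 76.1 TPM), and the processed transcript Becn1-209 had 58.4 and 45.0 TPM. Becn1-211 shared 99.0% of its bases with coding exons. Pik3c3, the lipid kinase itself, had 0.94 and 0.51 TPM, below the threshold in both libraries. Pik3r4, its protein kinase-like partner, had 6.42 and 4.71 TPM, with the retained intron Pik3r4-209 leading in both. Atg14, which directs the complex to autophagy, had 2.75 and 0.84 TPM on 472 and 20 expected counts.

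Among the genes of lipid supply, Atg9a, the membrane protein that seeds the autophagosome, had 220.4 TPM in replicate 1 and 277 TPM in replicate 2, over 99% of it coding in both. Its leading transcript changed from Atg9a-201 to Atg9a-208, whereas Atg9a-201 led in both libraries in the table made from reads. Of the exon bases of Atg9a, 31.8% lie in Gm29253, a processed transcript gene on the same strand at 55.1 and 80.7 TPM, so reads could be split between them. The lipid-transfer protein genes Atg2a and Atg2b had 102 and 27.2 TPM in replicate 1, and Atg2a was also the higher in replicate 2, 139 against 42.7 TPM. In Atg2b the retained intron Atg2b-204 took 47.2% and 94.6%, and its coding transcripts had 8.64 and 2.18 TPM. Atg2a was led by the coding Atg2a-204 in replicate 1 and by the processed transcript Atg2a-206 in replicate 2, which held 48.7% of TPM there.

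WIPI proteins bind the lipid that the PI3-kinase makes. Wipi1 had 61.1 TPM in replicate 1 and 37.4 TPM in replicate 2, all coding. Wipi2, which recruits ATG16L1, had 17.3 and 29.4 TPM, and its coding transcripts had 12.7 and 9.39 TPM, with the retained intron Wipi2-204 leading in replicate 2. Wipi1 was above Wipi2 in all 16 values.

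In the conjugation systems, Atg3, the E2-like enzyme that attaches ATG8 proteins to lipid, had 11.3 TPM in replicate 1 and 26.0 TPM in replicate 2, of which 97.9% and 100% were coding. Atg7, the E1-like enzyme of both systems, had 30.6 and 92.1 TPM, and here the processed transcript Atg7-213 of 408 bases held 64.7% and 93.8%. The coding transcripts of Atg7 had 5.39 and 5.67 TPM, and Atg7-213 had 19.8 and 86.4 TPM. Atg3 therefore kept its difference when coding transcripts alone were counted, and Atg7 did not.

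Atg12, the ubiquitin-like protein joined to ATG5, had 16.2 TPM in replicate 1 and 31.7 TPM in replicate 2, and 6.38 and 4.72 TPM in coding transcripts, with the retained intron Atg12-203 leading in both. Atg5 itself had 2.78 and 2.92 TPM. Atg16l1, which completes the ligase-like complex, had 6.34 and 5.58 TPM, and its leading transcript changed from the coding Atg16l1-202 to the retained intron Atg16l1-208. Atg10, the E2-like enzyme for ATG12, had 0.15 TPM in replicate 1 and 0 in replicate 2, on 9 and 0 expected counts.

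The ATG4 proteases trim ATG8 proteins before attachment and release them afterwards. Atg4d had 104.8 TPM in replicate 1 and 428 TPM in replicate 2, and 151 and 302 CPM. Almost none of it was coding, since Atg4d-201 had 0.54 and 0.45 TPM. The retained intron Atg4d-203 had 64.0 and 122 TPM and the decay target Atg4d-204 had 15.0 and 298 TPM. The M4 transcript table, in which those transcripts were not matched, gave the coding Atg4d-201 64.0 and 157 TPM. So its level as a coding transcript depended on the annotation release. Kri1, on the opposite strand, overlaps 19.3% of the exon bases of Atg4d and had 59.0 and 5.58 TPM. Atg4b, the most active family member on LC3, had 14.9 and 11.9 TPM, of which 6.10 and 3.57 TPM were coding. Atg4a had 0.27 and 0 TPM, and 51.2% of its 50-base stretches also occur in Atg4a-ps. Atg4c had no counts in either library.

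Among the cargo receptors, Sqstm1, the ubiquitin-binding receptor p62, had 175 TPM in replicate 1 and 335 TPM in replicate 2, led by the coding Sqstm1-205 in both. Nbr1, a receptor of related build, had 174 and 36.4 TPM. In gene TPM they stood level in replicate 1, and in replicate 2 Sqstm1 was 9.20-fold higher. The table made from reads gave other gaps, with Sqstm1 at 0.42 times Nbr1 in replicate 1 and 1.11-fold higher in replicate 2. Counting coding transcripts alone, Sqstm1 was 13.8-fold and 204-fold higher, but 12.1-fold and 44.1-fold higher in the rescaled table made from reads. In Nbr1 the retained intron Nbr1-216 led both libraries in the main table, and the processed transcript Nbr1-218 in the table made from reads. The coding transcripts of Nbr1 had 12.6 and 1.63 TPM in the main table. Optn, optineurin, had 44.0 and 29.2 TPM, with 26.2 and 4.30 TPM in coding transcripts and Optn-204, a processed transcript, leading in replicate 2.

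The transcription factors TFEB and TFE3 switch on lysosomal and autophagy genes, and FOXO3 does so in several tissues. Foxo3 had 217 TPM in replicate 1 and 167 TPM in replicate 2. Tfe3 had 139.6 and 102 TPM, and Tfeb 14.7 and 16.5 TPM. Tfe3 exceeded Tfeb 9.48-fold and 6.22-fold, and Foxo3 exceeded Tfeb 14.8-fold and 10.1-fold, both orders in all 16 values. At least 85.7% of the TPM of each was coding in both libraries.

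Between the libraries, 35 members reached a mean of 50 expected counts and were compared. Ulk1, Atg3, Atg7, Atg4d, Map1lc3a and Bnip3l, 6 of 35, were over 2-fold higher in replicate 2, beside 15.5% of all 9028 genes compared. Atg14, Map1lc3b, Gabarap, Gabarapl1, Gabarapl2, Nbr1 and Fundc1, 7 of 35, were over 2-fold lower, beside 35.4% of all. The median log2 difference was 0.07 over the members and -0.42 over all genes, and each compares 1 library with 1 other. No test was possible.

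The values were formed in 11 ways, from other tables, scalings and sets of transcripts. All 11 gave a lower value in replicate 2 for 10 members, which were Atg14, Wipi1, Map1lc3b, Gabarap, Gabarapl1, Gabarapl2, Nbr1, Optn, Tfe3 and Foxo3. Of 8463 genes of all kinds with a value in each way, 40.8% were lower in all 11, a larger share than the 10 of 35, and the median over all genes was below 0 in each. Map1lc3b, Gabarapl1 and Gabarapl2 were over 2-fold lower in all 11, as were 13% of all genes. No member was higher in all 11, but 9 were higher in the 10 that leave aside the unscaled table made from reads, in which the median over all genes was -1.78. The share of all genes higher in those 10 was 21.4%, near that of the members. Those 9 were Ulk1, Ulk2, Atg13, Rb1cc1, Atg9a, Atg3, Map1lc3a, Sqstm1 and Tfeb. Several differences moved with the transcripts counted. For Bnip3l, Atg4d, Atg7 and Atg12 the log2 differences were 3.51, 2.03, 1.59 and 0.97 in gene TPM, and -2.15, -0.26, 0.07 and -0.43 in coding transcripts. For Atg2b, Wipi2, Atg16l1 and Optn they were 0.65, 0.77, -0.18 and -0.59 in gene TPM, and -1.99, -0.43, -2.68 and -2.60 in coding transcripts. These coding values are those of M21 and depended on the release for some members. In M4 the coding Atg2b-201 (12.39 and 17.95 TPM) and Atg12-201 (18.94 and 27.19) were higher in replicate 2. The coding Bnip3l-201 (56.16 and 13.46 TPM) and Atg16l1-202 (4.65 and 0) were lower there in M4 too.

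**Figure D5:**
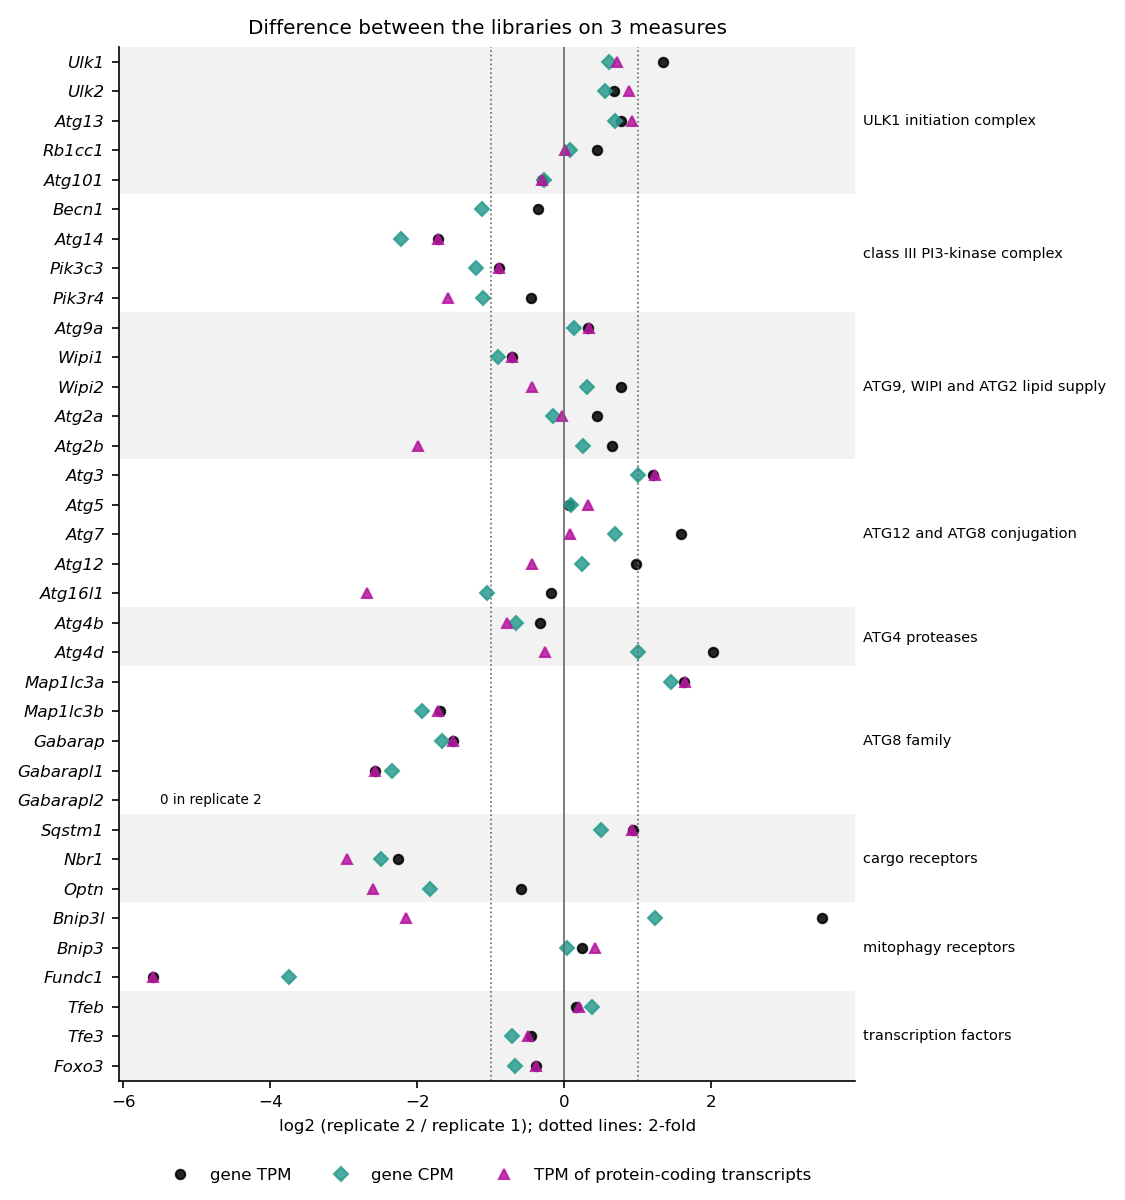
Log2 ratio of replicate 2 to replicate 1 for the 35 members compared, in gene TPM (circles), CPM (diamonds) and TPM of protein-coding transcripts (triangles), with 2-fold dotted. The 3 marks of each ATG8 gene lie close together, whereas those of Bnip3l spread from 3.51 to -2.15. Gabarapl2, at 0 in replicate 2, and the coding value of Becn1 have no ratio.

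Of 83 further genes of the pathway, 65 were detected, and among 69 compared 6 were over 2-fold higher and 30 over 2-fold lower in replicate 2, beside 15.5% and 35.4% of all genes. Of 13 other core factors 10 were detected, with Nrbf2, a PI3-kinase subunit, at 38.3 and 54.0 TPM and Ambra1 at 28.1 and 37.2 TPM. Atg9b had 0.08 and 0.05 TPM and Wdfy3 was at 0. Of 13 other cargo and mitophagy factors 11 were detected, led by Fkbp8 at 1428 and 3979 TPM and Bcl2l13 at 658 and 410.1 TPM. Both encode outer mitochondrial membrane proteins that bind LC3. In Fkbp8 the coding part was 808 and 799 TPM, so its difference too lay in other transcripts. Calcoco2 was at 0 in both libraries.

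Of 12 fusion genes 10 were detected, and 8 of the 12 were over 2-fold lower in replicate 2 in TPM, beside 35.4% of all genes compared. The SNARE Vamp8 had 183 and 20.9 TPM and the small GTPase Rab7 117 and 66.5 TPM. Stx17, the autophagosomal SNARE, had 6.76 and 0.30 TPM, and Vps41 had 1.21 and 0.03 TPM. Of 22 lysosomal genes 19 were detected, with the proton pump subunit Atp6v0c at 502 and 169 TPM and Lamp1 at 265 and 273 TPM, while Cd63 and Hexa stayed at 0.03 TPM or less.

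Of 18 genes of mTORC1 and AMPK control, the nutrient and energy sensors upstream of ULK1, 14 were detected. Akt1s1, which encodes an mTORC1 inhibitor, had 427 and 6168 TPM but 268 and 1282 CPM, with an effective length of 620.1 and 238 bases. Prkab1, an AMPK subunit, had 1090 and 491 TPM, of which 228 and 123 TPM lay in protein-coding transcripts. Deptor had 0.03 and 0 TPM and Prkaa2 was at 0. Of 5 other MiT-TFE and FOXO factors, Foxo4 alone was detected, at 57.8 and 23.9 TPM. Foxo1 had 0 and 0.03 TPM, and Mitf, Tfec and Foxo6 were at 0.

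Some members share sequence with other loci. Of the 38, 20 share no stretch of 50 bases with a transcript of another gene, and over 10% of such stretches were shared for 5, namely Atg4a, Atg9a, Bnip3l, Bnip3 and Gabarapl2. For Bnip3l it was 20.8%, all with the pseudogene Bnip3l-ps, which had 1.88 and 2.07 TPM. Exons of 11 members overlap a gene on the opposite strand, and no source used here states if strand entered the counting. The shares of all genes with such stretches or overlaps were not computed.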

How the data were processed

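Per the file descriptions, reads were placed on mm10. Each library has gene and transcript tables for GENCODE M21 and M4 and an M21 transcript table made from the reads. For the aligner and quantifiers: not given in the sources used here. Expected counts, as the authors deposited them, are estimated fragments per feature, not normalized. The TPM values are the authors', per the file headers, scaled to a fixed total in each table. The M21 gene table was used for levels and the M21 transcript table for transcripts. Entries for spike-ins and tRNAs were dropped.

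The members and lists were chosen with earlier results of these data known. Every member is named, and of each other list the 2 highest and 2 lowest genes by mean TPM. A gene that this rule names is not reported here. For transcripts, members with a non-coding or changing leader and the 5 highest are named. Detection needed 1 TPM in both replicates, and comparisons a mean expected count of 50. Medians used log2(TPM + 1), with a pseudocount of 1. CPM divides counts by the total over mouse genes. With 1 group there was no test between conditions.

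As alternatives, levels came from M4, from the read-based table (as deposited, or rescaled over nuclear protein-coding genes), posterior means, rescaled TPM, CPM, DESeq2 size factors and edgeR TMM (both on rounded counts), other thresholds and each replicate alone. Counting protein-coding transcripts alone was added after seeing the data. Transcripts were matched between M21 and M4 by identifier without version. The count of genes over 2-fold apart was tested on simulated data with counting error only: of 200 genes raised 3-fold among 9029, 200 were recovered with 9 false calls. Tools were Python 3.11.15 with pandas 2.3.3, numpy 2.4.6 and matplotlib 3.10.9, and R 4.3.3 with DESeq2 1.42.0 and edgeR 4.0.16.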

Additional observations from a re-analysis of the deposited data

How the results depend on the processing

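Replicates disagree in depth 5.06-fold, so low members are limited by replicate 2. The number of detected members ran from 27 to 34 over all settings, 31 to 34 with a replicate left out. The members' median level, 4.98, was 4.96 to 4.99 with a replicate left out, 4.93 in the M4 table, 4.08 in the table made from reads, 5.28 there after rescaling, 4.95 with posterior means, 5.05 with rescaled TPM, 4.94 with a pseudocount of 0.1 and 5.41 over detected members alone. Over protein-coding transcripts alone it was 3.15, and 3.82 in the rescaled table made from reads. The table made from reads, unscaled, put 25 of 35 members over 2-fold apart instead of 13. All 25 were lower in replicate 2, but so were 76.3% of all 9008 genes compared there. That count was therefore not particular to the members.

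The median difference between replicates, 0.07, changed sign under 5 settings: -1.33 in the table made from reads, -0.15 in CPM, -0.079 without a count filter, and -0.43 and -0.34 for coding transcripts alone in the main and rescaled tables. It was 0.30 in the rescaled table made from reads, 0.20 with TMM, 0.28 with DESeq2 size factors and 0.49 with the median of all genes set to 0. The GABARAP share was 60.4% to 83.3% and the Bnip3l share 16.8% to 66.7% with a replicate left out. The Bnip3l share was 10.8% for coding transcripts alone in the main table. In the rescaled table made from reads it was 33.7% in replicate 1 and 23.9% in replicate 2.

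Of 117 pair values 7 reversed. For Map1lc3b over Map1lc3a the log2 ratio was 0.084, 0.066 and 0.063 in the 3 forms of the table made from reads and -1.80 to 1.49 with a replicate left out. For Sqstm1 over Nbr1 it was -0.54 in the table made from reads, scaled or not. For Bnip3l over Bnip3 it was -2.24 to 1.00 with a replicate left out. No paired analysis was possible because there is 1 group.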
